A study of Homo sapiens with 6 samples.

Results

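The ubiquitin-conjugating enzymes, or E2 enzymes, were followed in SW480, a cultured human cell line that derives from a colorectal adenocarcinoma. Members were all genes of the deposited table whose symbol begins with UBE2 and a letter, without pseudogene symbols ending in P and digits, which gave 43 of 60664 genes. The table's own descriptions call 7 of the 43 pseudogenes. Cells had received Amuc_0904 (3 libraries) or buffer (3 libraries). All were labelled wild type, and RNA sequencing gave 1 expression value per gene and library in TPM, a share of each library's transcripts scaled by transcript length. The name Amuc_0904 is written like the gene identifiers of Akkermansia muciniphila, a bacterium of the gut. The labels used here give no preparation, dose or time for it. Nothing in the labels says that the libraries came from separate cultures, so p-values measure only the spread between these samples, which may be technical.

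Ubiquitin is a small protein that cells attach to other proteins to mark them for degradation or signalling. An E1 enzyme activates it, an E2 enzyme carries it as a thioester, and an E3 ligase brings the loaded E2 to its substrate. Some E2 enzymes place the first ubiquitin, others lengthen chains, and a few carry related modifiers such as NEDD8 or ISG15. In mitosis UBE2C and UBE2S serve the anaphase-promoting complex, the ligase that releases sister chromatids: UBE2C starts the chain on the substrate and UBE2S lengthens it.

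The family was taken up because UBE2S stood out in the same comparison, so its values choose the theme and are given as a description with no test. The 250 bases upstream of its annotated start are shown because UBE2S is the gene on which the description turns, and those of UBE2T, another E2 gene of dividing cells, are shown beside them. Both come from RefSeq on GRCh38.p14, lie on the minus strand and are written 5′ to 3′. UBE2S covers chr19:55407789-55408038 and UBE2T covers chr1:202341937-202342186. Capitals mark exact matches, on either strand, to the CCAAT box (letters CCAAT), the TATA box (letters TATAAA), the cyclic AMP response element (letters TGACGTCA), the GC box (letters GGGCGG) and the cell cycle homology region (letters TTTGAA), and no match overlaps another.
UBE2S: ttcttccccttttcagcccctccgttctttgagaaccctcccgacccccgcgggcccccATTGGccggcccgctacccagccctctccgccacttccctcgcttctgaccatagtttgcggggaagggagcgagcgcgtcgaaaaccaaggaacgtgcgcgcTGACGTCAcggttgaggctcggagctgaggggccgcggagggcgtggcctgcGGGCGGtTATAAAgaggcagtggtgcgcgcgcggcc
UBE2T: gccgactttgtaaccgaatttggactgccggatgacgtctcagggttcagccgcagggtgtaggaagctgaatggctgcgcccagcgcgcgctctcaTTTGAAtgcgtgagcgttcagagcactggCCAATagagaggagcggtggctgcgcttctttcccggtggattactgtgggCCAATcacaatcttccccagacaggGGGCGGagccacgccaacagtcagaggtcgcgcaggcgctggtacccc
The UBE2S window holds a CCAAT box on the other strand, a cyclic AMP response element, a GC box and, from 29 to 24 bases before the start, a TATA box. The UBE2T window holds CCAAT boxes at 2 places, a GC box and a cell cycle homology region. Of 35116 promoter windows of this length in the table, 32% hold the CCAAT box, 10.7% the TATA box, 1.65% the cyclic AMP response element, 42.6% the GC box and 13.3% the cell cycle homology region, each on either strand. These matches describe letters only. The table matched 25 of the 32 E2 genes tested below, and UBE2C is not among them.

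Facts of the whole series set the frame. The epithelial markers fixed for SW480 cells were dominated by keratins, with KRT8 between 2827.55 and 3572.72 TPM, while 6 of the 10 averaged at least 1 TPM. KRT20, VIL1 and CEACAM5 lay at or below 1.09 TPM, and CEACAM6 was listed at 0 throughout. The 10 summed to between 7092 and 7380 TPM in Amuc_0904 libraries and between 7907 and 8148 TPM in buffer libraries. Leukocyte markers summed to 2.09 to 2.89 TPM after Amuc_0904 and 2.20 to 2.64 TPM in buffer, fibroblast markers to 1.40 to 2.14 and 1.70 to 3.16 TPM, and endothelial markers to 0.16 to 0.54 and 0.25 to 0.80 TPM, with PTPRC and DCN listed at 0. Amuc_0904 replicate 3 and buffer replicate 2 had the most extreme scores on principal component 1, and these same libraries had the lowest and the highest slope of log2 expression with transcript GC content (-0.04 and 0.16 log2 units per 10 percentage points). How many reads stand behind a value cannot be read from TPM, so depth is unknown.

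UBE2S was at 216.97, 205.15 and 160.91 TPM in Amuc_0904 replicates 1, 2 and 3, against 409.05, 431.93 and 388.51 TPM in buffer replicates 1, 2 and 3. The highest treated library lay far below the lowest buffer library. Group means were 194 ± 29.6 TPM after Amuc_0904 and 410 ± 21.7 TPM in buffer (SD, n = 3 each), 2.11-fold lower after Amuc_0904. In bulk RNA, fewer cells of a type and less RNA per cell cannot be told apart. On the log2(TPM + 1) scale of the fit the difference was -1.08. UBE2S was lowest in Amuc_0904 replicate 3 and highest in buffer replicate 2, the most extreme libraries on principal component 1. Without both of them the log2 difference was -0.91, and with the GC trend of each library removed it was -0.96. The parts of the GC slope and of the lower epithelial marker sum in the UBE2S difference were not tested.

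UBE2C, which starts the chains that UBE2S extends, was at 421.33, 408.55 and 452.62 TPM in Amuc_0904 libraries, against 403.37, 442.08 and 424.93 TPM in buffer libraries. These groups overlapped, and UBE2C did not pass the test (log2 fold change 0.01, 95% interval -0.13 to 0.16, limma adjusted p = 0.93). Its sign turned without Amuc_0904 replicate 3 (-0.03) or buffer replicate 1 (-0.02). The ratio of UBE2S to UBE2C TPM within a library was 0.515, 0.502 and 0.356 in Amuc_0904 libraries and 1.01, 0.977 and 0.914 in buffer libraries. The pair thus stood at nearly equal TPM in buffer libraries, while UBE2S was at 0.458 ± 0.0886 of the UBE2C level after Amuc_0904, against 0.968 ± 0.0504 in buffer (SD, n = 3 each). The ratio uses the values that chose the family and carries no test.

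**Figure D1:**
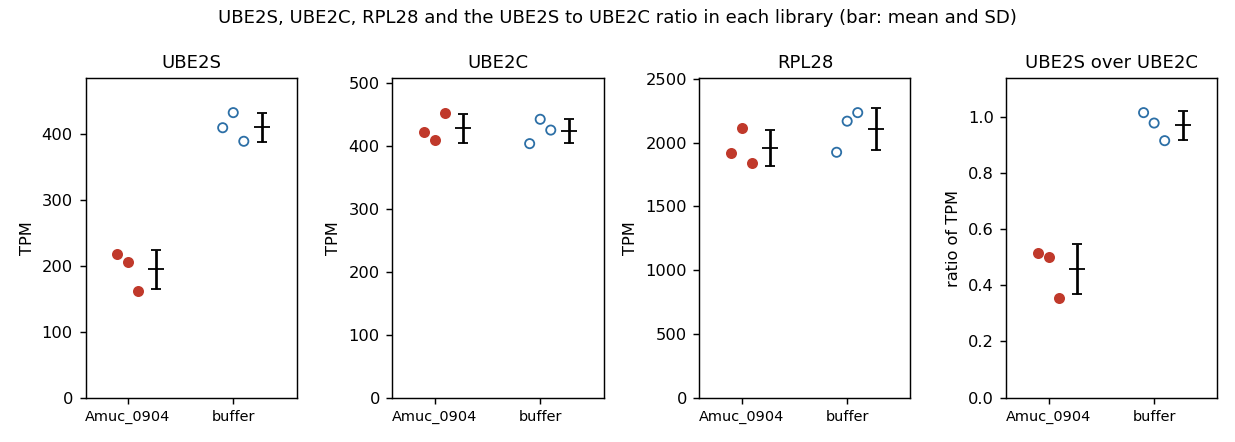
Levels in TPM of UBE2S, UBE2C and the overlapping gene RPL28, and the ratio of UBE2S to UBE2C, in each Amuc_0904 library (filled) and each buffer library (open), with the group mean and SD beside the points. UBE2S lies between 160.91 and 216.97 TPM after Amuc_0904 and between 388.51 and 431.93 TPM in buffer, while the UBE2C and RPL28 points of both groups overlap.

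Reads of other loci could enter the UBE2S value. In the GENCODE 29 annotation on GRCh38, UBE2S (ENSG00000108106) lies on the minus strand of chromosome 19 from 55399745 to 55407777. It overlaps the span of RPL28, a ribosomal protein gene on the other strand, but shares 0 of its 2788 exon bases with it. RPL28 was at 1919.36, 2113.30 and 1840.76 TPM in Amuc_0904 libraries, against 1923.40, 2167.19 and 2234.13 TPM in buffer libraries, overlapping groups that did not pass (limma adjusted p = 0.48). Processed copies of UBE2S exist: UBE2SP1 is 98.8% identical to the UBE2S transcript over 669 bases and UBE2SP2 98.2% identical over 497 bases. UBE2SP1 was listed at 0.45, 0.25 and 0.56 TPM in Amuc_0904 libraries and at 0, 0.22 and 0 TPM in buffer libraries. UBE2SP2 was listed at 0.49, 0.29 and 0.20 TPM in Amuc_0904 libraries and at 0, 0 and 0.01 TPM in buffer libraries. Both copies were thus listed higher after Amuc_0904, the reverse of UBE2S, at levels under 1 TPM. Summing all 3 loci gave 195 ± 29.6 TPM after Amuc_0904 and 410 ± 21.8 TPM in buffer (SD, n = 3 each).

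Of the 43 members, 32 had at least 1 TPM in at least 3 libraries and were tested across the whole table of 14421 genes with limma. In that fit 1.37% of all tested genes passed an adjusted p of 0.05. As shares of all tested genes, 0.999% passed lower and 0.368% passed higher after Amuc_0904. The 1 E2 gene of 32 past that threshold was UBE2S, which was so by the choice of the family, and nothing is read from that count. Of the other 31, 0 passed in limma, and 6 had an unadjusted p under 0.05, beside 20.8% of all tested genes at that level. The 31 log2 fold changes ran from -0.29 to 0.29, with 17 above 0 and 14 below, and their adjusted p from 0.11 to 0.93. Their median was 0.02, beside -0.06 over all tested genes. A gene that missed the threshold is not shown to be equal in both groups, but 30 of the 31 intervals lay within 0.5 log2 units of 0. The groups did not overlap for 12 of the 32 genes, 5 higher after Amuc_0904 and 7 lower, UBE2S being 1 of the 7, while 27.1% of all tested genes showed no overlap (7% higher, 20.1% lower).

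**Figure D2:**
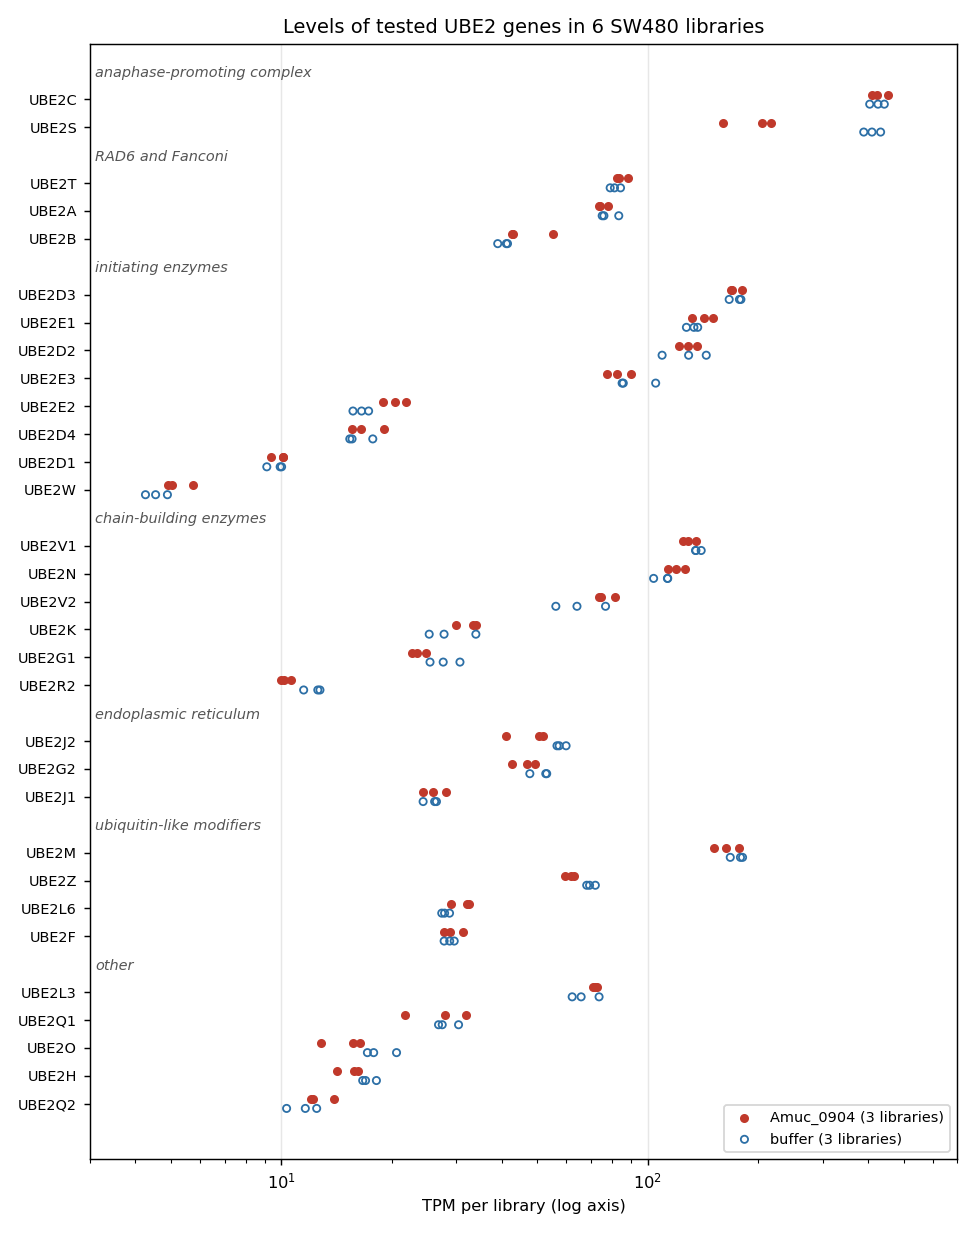
TPM on a log axis of 31 of the 32 tested E2 genes in the 3 Amuc_0904 libraries (filled, upper row) and the 3 buffer libraries (open, lower row), grouped by role and ordered by mean within a role. UBE2C and, in buffer, UBE2S hold the top of the range, at 388.51 TPM or more, and UBE2W has the lowest mean at 4.90 TPM.

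TPM values are scaled by length, so levels can be set beside each other between genes. By the mean over all 6 libraries, 9 E2 genes were at 100 TPM or more, 21 between 10 and 100 TPM and 2 below 10 TPM. UBE2C led with 425 TPM, followed by UBE2S with 302 TPM. UBE2D3, UBE2M and UBE2E1 came next with 174, 170.1 and 137 TPM. Between UBE2D3 (166.81 to 180.57 TPM over the 6 libraries) and UBE2M (151.58 to 181.43 TPM) the ranges overlapped, so their order is within the spread. All 32 together summed to 2487.17, 2424.44 and 2486.09 TPM in Amuc_0904 libraries, against 2732.09, 2721.65 and 2631.05 TPM in buffer libraries. Without UBE2S the sums were 2270.20, 2219.29 and 2325.18 TPM after Amuc_0904 and 2323.04, 2289.72 and 2242.54 TPM in buffer, ranges that overlap. UBE2S made up 7.89 ± 1.23% of the summed E2 TPM after Amuc_0904 and 15.2 ± 0.587% in buffer (SD, n = 3 each).

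Of the 3 tested E2 enzymes of chromatin and DNA repair, 0 passed in limma, with adjusted p between 0.33 and 0.67. UBE2A and UBE2B, near-identical enzymes known as the human RAD6 pair, mark histones and the DNA clamp PCNA, and UBE2T carries ubiquitin to the Fanconi anaemia proteins at DNA crosslinks. UBE2B was at 42.50, 42.81 and 55.13 TPM in Amuc_0904 libraries, against 41.13, 41.43 and 38.96 TPM in buffer libraries. All treated values lay above the buffer values, but the separation of replicates 1 and 2 was small and Amuc_0904 replicate 3 stood apart. The log2 fold change of UBE2B was 0.19 (limma adjusted p = 0.33), and 0.07 without Amuc_0904 replicate 3. UBE2A shares 956 of its 5276 exon bases with NKRF on the other strand. UBE2T averaged 84.8 TPM after Amuc_0904 and 81.5 TPM in buffer, and UBE2A 75.0 and 78.1 TPM, both with overlapping groups.

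Enzymes that start chains with many ligases spanned the range of levels in the family, with UBE2D3, UBE2E1 and UBE2D2 above 100 TPM on average and UBE2W and UBE2D1 below 10 TPM. The UBE2D group (4 tested genes) works with a broad range of RING ligases, the UBE2E group (3 tested genes) is its relative with a longer amino-terminal end, and UBE2W attaches ubiquitin to protein amino termini. In the reported fit UBE2E2 had the largest positive log2 fold change of the family. It was at 21.87, 18.97 and 20.47 TPM in Amuc_0904 libraries, against 16.56, 17.31 and 15.69 TPM in buffer libraries, with no overlap. Its log2 fold change was 0.29 (SE 0.08, limma adjusted p = 0.11), so it did not pass over all genes. UBE2E1 was at 142.30, 132.21 and 150.93 TPM in Amuc_0904 libraries and 127.51, 133.66 and 136.86 TPM in buffer libraries, which overlap. UBE2D3 was at 169.59, 168.52 and 180.57 TPM after Amuc_0904 and 179.55, 177.90 and 166.81 TPM in buffer, also overlapping, with a log2 fold change of -0.02 whose sign turned with the scaling. UBE2W was at 5.04, 4.92 and 5.74 TPM after Amuc_0904 and 4.26, 4.54 and 4.89 TPM in buffer, groups that nearly touch (log2 fold change 0.16, limma adjusted p = 0.45, and 0.11 without Amuc_0904 replicate 3). UBE2W shares 474 of its 9090 exon bases with AC022826.2 on its own strand, so its value can hold reads of that gene. AC022826.2 was listed at 3.35, 1.87 and 3.48 TPM after Amuc_0904 and 1.47, 2.59 and 2.48 TPM in buffer. The other 4 genes, UBE2D1, UBE2D2, UBE2D4 and UBE2E3, had overlapping groups and adjusted p between 0.46 and 0.93.

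Of the 6 tested chain-building enzymes 0 passed in limma, with adjusted p between 0.17 and 0.48. UBE2N builds signalling chains only in a pair with UBE2V1 or UBE2V2, relatives that lack the catalytic cysteine. UBE2V2 was at 74.62, 73.78 and 81.57 TPM in Amuc_0904 libraries, against 76.70, 56.13 and 64.10 TPM in buffer libraries, where buffer replicate 1 lay inside the treated range (log2 fold change 0.23, limma adjusted p = 0.27). The log2 fold change of UBE2V2 was 0.35 without buffer replicate 1 and 0.13 without buffer replicate 2. UBE2N averaged 120 ± 6.55 TPM after Amuc_0904 and 110.1 ± 5.49 TPM in buffer, and UBE2V1 130 ± 5.12 and 137 ± 2.73 TPM (SD, n = 3 each). The UBE2V1 to UBE2N ratio was 0.987, 1.08 and 1.19 in Amuc_0904 libraries and 1.19, 1.24 and 1.30 in buffer libraries, so the partner without a catalytic site was at about the level of the active one. UBE2N shares 2474 of its 6269 exon bases with NUDT4 on the other strand, and UBE2V1 shares 2066 of 4818 with a readthrough gene on its own strand, so these values can hold reads of the neighbours.

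The other chain builders, UBE2R2, UBE2G1 and UBE2K, extend chains that mark proteins for degradation. UBE2R2, a close relative of CDC34 that works with cullin ligases, was at 9.98, 10.20 and 10.60 TPM in Amuc_0904 libraries, against 12.58, 12.75 and 11.51 TPM in buffer libraries. UBE2G1, which also extends chains on cullin ligase substrates, was at 24.80, 23.41 and 22.80 TPM after Amuc_0904 and 25.46, 27.66 and 30.73 TPM in buffer. Neither gene had overlapping groups, and neither passed (log2 fold change -0.24 and -0.23, limma adjusted p = 0.17 and 0.19). UBE2K averaged 32.4 TPM after Amuc_0904 and 29.03 TPM in buffer, with overlapping groups.

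E2 enzymes of the endoplasmic reticulum serve the disposal of misfolded proteins, UBE2J1 and UBE2J2 as membrane-anchored enzymes and UBE2G2 as a soluble one. UBE2J2 was at 51.69, 50.60 and 41.09 TPM in Amuc_0904 libraries, against 59.86, 57.31 and 56.54 TPM in buffer libraries. Every treated value lay below every buffer value, and the lowest was that of Amuc_0904 replicate 3. The log2 fold change of UBE2J2 was -0.28 (SE 0.09, limma adjusted p = 0.14), and it was -0.10 with the GC trend removed and -0.18 without Amuc_0904 replicate 3. UBE2G2 averaged 46.2 ± 3.37 TPM after Amuc_0904 and 51.1 ± 2.99 TPM in buffer, and UBE2J1 26.1 ± 1.88 and 25.7 ± 1.15 TPM (SD, n = 3 each), both with overlapping groups.

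The carriers of ubiquitin-like proteins described here did not pass either. UBE2M and UBE2F load NEDD8 onto cullins, UBE2L6 carries ISG15, and UBE2Z is charged by the E1 enzyme UBA6. UBE2Z was at 62.89, 61.88 and 59.64 TPM in Amuc_0904 libraries, against 71.94, 69.38 and 68.15 TPM in buffer libraries, without overlap (log2 fold change -0.18, limma adjusted p = 0.14). UBE2M was at 163.53, 176.97 and 151.58 TPM after Amuc_0904 and 167.94, 181.43 and 179.05 TPM in buffer, which overlap. UBE2M has the highest transcript GC content of the tested family, 65.6%, and its log2 fold change was -0.10 (limma adjusted p = 0.44), and 0.13 with the GC trend removed (limma adjusted p = 0.25). UBE2L6, an interferon-induced gene, averaged 31.2 ± 1.92 TPM after Amuc_0904 and 28.0 ± 0.694 TPM in buffer, its treated libraries all above the buffer ones (SD, n = 3 each). The log2 fold change of UBE2L6 was 0.15 (limma adjusted p = 0.30). With the GC trend removed it was 0.29 (limma adjusted p = 0.092), the largest positive value of the family in that setting. UBE2F averaged 29.3 TPM after Amuc_0904 and 28.8 TPM in buffer, with overlapping groups. It shares 688 of its 4238 exon bases with UBE2F-SCLY on its own strand.

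Among the remaining enzymes UBE2O had the largest negative log2 fold change of the family after UBE2S. UBE2O is a large enzyme that joins E2 and E3 activity in 1 protein and clears unassembled ribosomal proteins. It was at 12.81, 16.42 and 15.71 TPM in Amuc_0904 libraries, against 17.87, 20.63 and 17.18 TPM in buffer libraries, with no overlap. Its log2 fold change was -0.29 (SE 0.11, limma adjusted p = 0.19), -0.13 with the GC trend removed and -0.19 without Amuc_0904 replicate 1. UBE2H, which serves the CTLH ligase, averaged 15.4 TPM after Amuc_0904 and 17.3 TPM in buffer with no overlap (limma adjusted p = 0.33). UBE2L3, the E2 of HECT and RING-between-RING ligases, averaged 71.8 and 67.2 TPM, UBE2Q1 27.3 and 28.3 TPM, and UBE2Q2 12.7 and 11.5 TPM, in Amuc_0904 and in buffer libraries, all with overlapping groups.

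**Figure D3:**
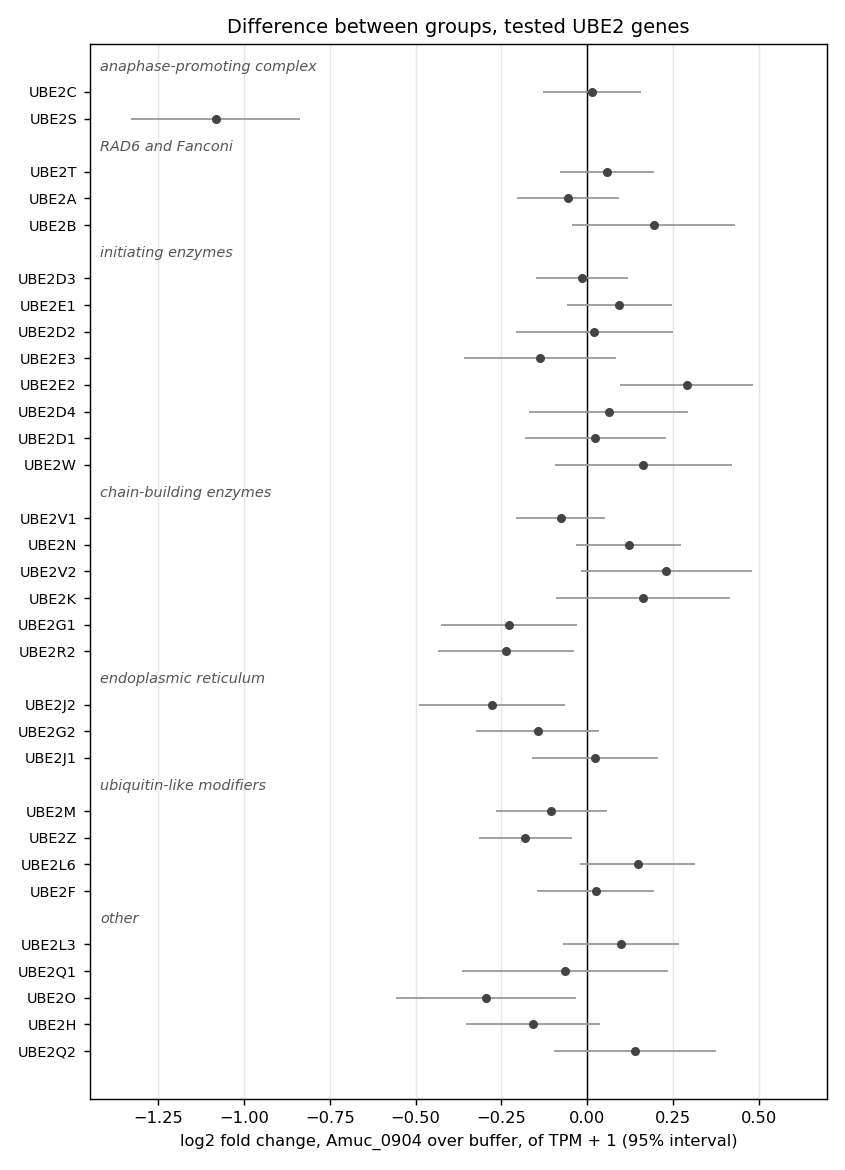
Log2 fold change of 31 of the 32 tested E2 genes, Amuc_0904 over buffer on the log2(TPM + 1) scale, with its 95% interval from the limma fit, grouped by role. UBE2S lies at -1.08, and the other genes drawn lie between -0.29 and 0.29. The UBE2S interval takes no account of the choice of the family by UBE2S and is not a test.

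The 11 members that were not tested were listed at or below 0.94 TPM in every library. Of these, 6 were listed at 0 throughout, all among the 7 described as pseudogenes. UBE2U reached 0.94 TPM in Amuc_0904 replicate 1 and was listed at 0 in the other 5 libraries. UBE2L4, UBE2L5, UBE2QL1 and UBE2Q2L had values above 0 in at least 2 libraries, none above 0.35 TPM. The pseudogenes that the symbol rule leaves out numbered 45, of which 32 were listed at 0 throughout and the highest single value was 1.55 TPM.

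Across the 32 tested genes the change was lower for transcripts richer in G and C (Pearson's r = -0.46, Spearman's rho = -0.51, given as a description across genes that share the same 6 libraries). Leaving out UBE2S gave r = -0.46. With each library's GC trend removed, r was -0.14 for all 32 and 0.05 for the 31 others. The removal is built to take out such a dependence, so this drop is no separate result. Of the 16 other members with a GC content of at most 45%, 12 had a positive log2 fold change, beside 56.9% of all tested genes in that range. Of the 15 above 45%, 10 had a negative one, beside 72.7% of all tested genes in that range. UBE2S has a GC content of 55.7%, and its log2 difference of -0.96 after the trend was removed compares with a range of -0.25 to 0.29 for the other 31.

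**Figure D4:**
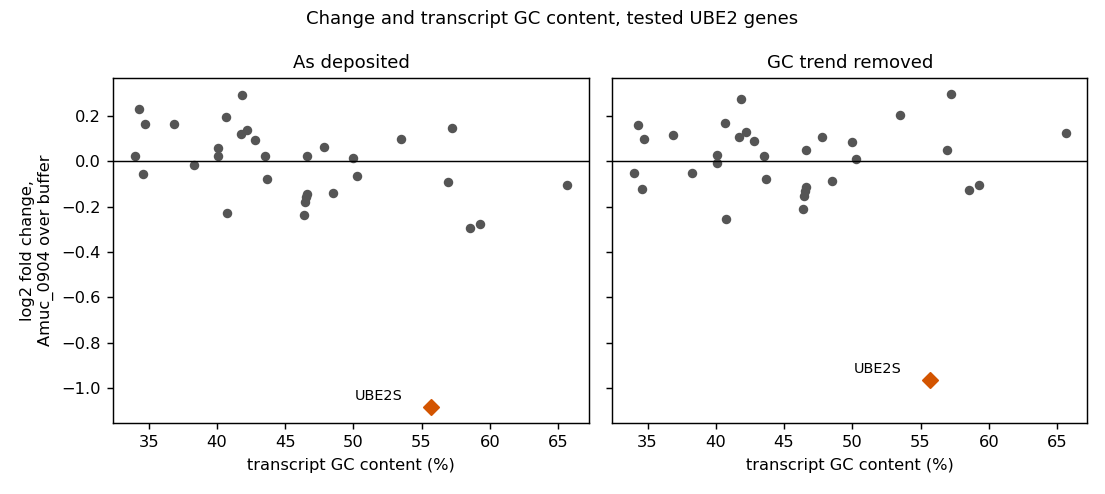
Log2 fold change (Amuc_0904 over buffer) against the GC content of the longest annotated transcript for the 32 tested E2 genes, from the deposited values (left) and with each library's GC trend removed (right). The downward tilt among the 31 other genes (r = -0.46) is taken out at right by the removal itself (r = 0.05). UBE2S (diamond) lies at -1.08 and -0.96.

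Genes that act with the E2 enzymes were counted in 15 lists that hold 209 genes, 202 of them tested, and 2 passed in limma over all genes (beside the 1.37% of all tested genes). The E1 enzymes (10 tested, median log2 fold change 0.01), the ubiquitin precursor genes (4 tested, 0.01), the ubiquitin-like modifiers (11 tested, 0.05) and the E2-fold genes with other names (8 tested, 0.03) had 0 members past the threshold in either direction. By highest mean, SAE1, a subunit of the SUMO E1, was at 218 ± 12.6 TPM after Amuc_0904 and 236 ± 8.68 TPM in buffer. UBB, a ubiquitin precursor, was at 1895 ± 57.1 and 1918 ± 67.8 TPM, FAU, which encodes a ubiquitin-like protein fused to a ribosomal protein, at 2468 ± 253 and 2371 ± 127 TPM, and UFC1, the carrier of the modifier UFM1, at 87.3 ± 7.53 and 81.0 ± 0.965 TPM, in Amuc_0904 and in buffer libraries (SD, n = 3 each). None of these 4 passed (limma adjusted p from 0.34 to 0.89).

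The ligase that UBE2S serves was measured at 17 genes, the subunits, coactivators and inhibitor of the anaphase-promoting complex, of which 0 passed, 9 had positive and 8 negative log2 fold changes, with a median of 0.02. ANAPC11, its RING subunit, was the most abundant, at 227.69, 257.11 and 200.02 TPM in Amuc_0904 libraries and 202.74, 256.15 and 266.05 TPM in buffer libraries, which overlap. Its mitotic coactivator CDC20, chosen for its role after the values were seen, was at 216.12, 227.20 and 204.12 TPM in Amuc_0904 libraries, against 237.73, 242.67 and 247.77 TPM in buffer libraries. The CDC20 groups did not overlap and did not pass (log2 fold change -0.17, limma adjusted p = 0.16). Of 18 tested substrates of the complex 0 passed, and 15 had a negative log2 fold change, beside 62.5% of all tested genes, with a median of -0.11. RRM2, a subunit of ribonucleotide reductase, was the most abundant, its groups without overlap, at 384 ± 20.7 TPM after Amuc_0904 and 437 ± 30.2 TPM in buffer (SD, n = 3 each, limma adjusted p = 0.18). CCNB2, AURKA, AURKB, PLK1, KIF11, CDCA3, CDCA5 and TK1 were also lower without overlap, and PTTG1 and GMNN higher. Over all tested genes 20.1% were lower and 7% higher without overlap. PLK1 (limma adjusted p = 0.052) and AURKB (0.078) lay nearest the threshold. These genes were named after their values were seen.

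Of 20 tested proliferation markers 1 passed in limma, CENPA, the centromeric histone. A negative log2 fold change was found for 15 of the 20, beside 62.5% of all tested genes, with a median of -0.13, beside -0.06 over all tested genes. CENPA was at 54.79, 46.70 and 43.37 TPM in Amuc_0904 libraries, against 67.05, 68.71 and 65.38 TPM in buffer libraries (log2 fold change -0.47, limma adjusted p = 0.048). This call held without Amuc_0904 replicate 1 (adjusted p = 0.041) and ended without each other single library, with limma adjusted p from 0.092 to 0.17. It also ended with a pseudocount of 0.1, without ribosomal protein and mitochondrial genes, with centring, quantile normalization or GC removal, and with no filter on low TPM, with limma adjusted p from 0.052 to 0.16, and without both extreme libraries (0.20). The part of these markers in the UBE2S difference was not tested.

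The ligases and partners of the other E2 enzymes gave 1 call. BIRC3, an inhibitor of apoptosis that uses the UBE2N pathway in tumour necrosis factor signalling, was at 14.99, 15.70 and 17.37 TPM in Amuc_0904 libraries, against 9.77, 6.38 and 7.94 TPM in buffer libraries. BIRC3 rose by a log2 fold change of 0.93 (limma adjusted p = 0.026), and the call held without buffer replicate 1 (adjusted p = 0.032) and ended without each other single library, with limma adjusted p from 0.064 to 0.080. It also ended with no filter on low TPM (limma adjusted p = 0.14) and without both of the extreme libraries on principal component 1 (0.12). It was the single call among 13 tested partners of UBE2N, whose median was -0.04, with 6 log2 fold changes positive and 7 negative. BIRC2, TNFAIP3 and CYLD were also higher without overlap (log2 fold change 0.41, 0.62 and 0.24, limma adjusted p = 0.075, 0.11 and 0.22). STUB1 was lower without overlap (-0.13, limma adjusted p = 0.31). They were named after their values were seen, and BIRC2 passed with the filter at 5 TPM (limma adjusted p = 0.049). Over all tested genes 7% were higher and 20.1% lower without overlap. In the 7 other partner and ligase lists 0 genes passed in either direction: cullins and neddylation (16 tested, median 0.03), SUMO ligases and proteases (14, -0.01), RING-between-RING ligases (13, -0.12), partners of the RAD6 enzymes (7, -0.08), the Fanconi anaemia genes (14, -0.01), ligases of endoplasmic reticulum degradation (12, -0.10) and HECT ligases (26, -0.08). Their most abundant members were DCUN1D5, SENP3, ARIH2, WAC, FANCI, AUP1 and HUWE1 in that order of lists, all with overlapping groups and limma adjusted p from 0.25 to 0.97. AUP1, a lipid droplet protein that recruits UBE2G2, averaged 139 ± 8.64 TPM after Amuc_0904 and 155 ± 8.12 TPM in buffer (SD, n = 3 each).

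**Figure D5:**
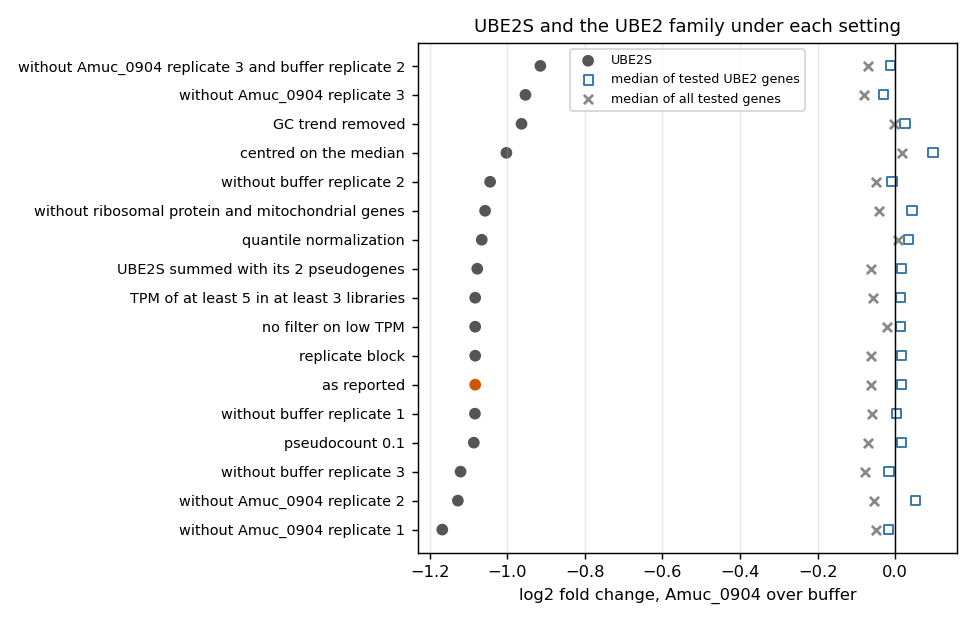
Log2 fold change (Amuc_0904 over buffer) of UBE2S (dots, the reported value in orange), the median of the tested E2 genes (squares) and the median of all tested genes (crosses) in the reported fit and under each other way of processing. UBE2S stays between -1.17 and -0.91, and the E2 median stays between -0.03 and 0.10.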

How the data were processed

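Gene values came from a single deposited table in TPM, which the authors computed with RSEM, per the labels' design text. HISAT2, StringTie and edgeR appear, with no role given, in the submitters' processing notes, as does the mouse build GRCm38.p6. The identifiers are human Ensembl genes, so the annotation behind the TPM values is uncertain. TPM gives no depth, so no counting interval was possible.

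Genes at 1 TPM or more in 3 or more libraries entered the fit as log2(TPM + 1). The fit used limma 3.58.1 under R 4.3.3 (moderated by empirical Bayes with a trend, two-sided, Benjamini-Hochberg over all 14421 genes, threshold 0.05). Such fold changes understate the change of low genes. GC content, positions and overlaps came from GENCODE 29 (longest transcript, 99.0% of tested genes). The GC trend was removed by loess with a span of 0.3. The fit was tested on simulated data.

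The E2 members, lists and tests were chosen with earlier results of these data known. Of the 32 tested E2 genes, 1 enters the counts and sums and is not reported here by itself. Per-library values are given for UBE2S, UBE2C, the 10 tested E2 genes with the largest absolute log2 fold change and the 5 with the highest mean. List members are named where they passed or, in a list with none, had the highest mean. Others are named where the text says that their values were seen first. Alternatives were a pseudocount of 0.1, no filter, a filter of 5 TPM, ribosomal protein and mitochondrial genes left out, median centring, quantile normalization, GC removal, the replicate block, each library left out and a threshold of 0.01.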

Additional observations from a re-analysis of the deposited data

How the results depend on the processing

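UBE2S was lower after Amuc_0904 in every setting run. Its log2 differences ran from -1.17 to -0.95 when single libraries were left out. Without the 2 most extreme libraries on principal component 1, a choice made after seeing the data, the difference was -0.91. The filter settings and the replicate block leave the value unchanged by construction. UBE2S was chosen for this difference and its groups lay far apart, so nothing is read from the constant sign. The count of E2 genes past the threshold, 1 in the reported fit and made up of UBE2S alone, was 0 with no filter on low TPM. There the fit called 9 of 30992 genes in place of 197 of 14421. The split of all calls moved from 73.1% lower to 49.4% with centring, 54.9% with quantile normalization and 34.5% with GC removal. The E2 call in these settings was again UBE2S alone, the gene that chose the family, and nothing is read from it. The calls over all genes numbered 85, 102 and 113 there, 432 with the filter at 5 TPM, and 35 to 112 without a single library. The difference in summed TPM of the other E2 genes was -13.5 TPM, 42.1 TPM with ribosomal protein and mitochondrial genes left out, which rescales all values, and from -40.4 to 12.6 TPM without single libraries (above 0 without Amuc_0904 replicate 2, at 12.6, or buffer replicate 1, at 5.43; lowest when Amuc_0904 replicate 3 was dropped, and -34.8 when buffer replicate 3 was). Of the list genes, in place of 2, 7 passed with the filter at 5 TPM. BIRC3, BIRC2 and ANAPC10 were higher there, and PLK1, FOXM1, CENPA and RNF31 lower. List genes past the threshold numbered 1 with a pseudocount of 0.1, without ribosomal protein and mitochondrial genes, with centring, quantile normalization or GC removal. They numbered 0 with no filter and at a threshold of 0.01, and 0 to 1 without a single library. The cause was not tested.

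Same-numbered libraries share only a number (correlation of their deviations -0.03, 0.08 and -0.09). With the replicate block 80 genes and 1 E2 gene passed, and 0 list genes.

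Of 194 values of single E2 genes under the alternatives, 8 changed sign, none of them past the threshold in either fit. With no filter, the filter at 5 TPM, the replicate block or the threshold of 0.01, a gene's log2 fold change stays the same by construction. Those values are among the 194 and could not change sign, so the share that did understates how far signs can turn. UBE2C ran from -0.028 (without Amuc_0904 replicate 3) to 0.045 without single libraries, and was at -0.021 without buffer replicate 1. UBE2D3 was at 0.011 without ribosomal protein and mitochondrial genes, 0.065 with centring, 0.0017 with quantile normalization, 0.0027 without Amuc_0904 replicate 2 and 0.0045 without buffer replicate 1, and ran from -0.048 to that value without single libraries. UBE2M was at 0.13 with GC removal, and at -0.16 and -0.049 without Amuc_0904 replicates 2 and 3. UBE2E1 was at 0.048 without Amuc_0904 replicate 3. Centring brought UBE2G1 to -0.15, UBE2R2 to -0.16 and UBE2Z to -0.10. Unknown depth limits the low genes most.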

Other observations

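The genes around UBE2S on chromosome 19 were looked at after its values were seen. Within 100 kb on either side GENCODE 29 lists 22 other genes, of which 8 were tested and 0 passed in limma (beside 1.37% of all tested genes). All 8 log2 fold changes were negative, from -0.63 to -0.06, beside 62.5% negative over all tested genes. KMT5C, which encodes a histone methyltransferase of silent chromatin, was at 5.56, 5.75 and 5.66 TPM in Amuc_0904 libraries, against 9.66, 10.65 and 7.79 TPM in buffer libraries, with no overlap (log2 fold change -0.63, limma adjusted p = 0.051). ISOC2 was at 104.38, 109.50 and 86.34 TPM in Amuc_0904 libraries and 102.96, 112.77 and 111.20 TPM in buffer libraries, which overlap.

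Among the 1308 genes with a mean of at least 100 TPM, 2 had a log2 fold change as low as that of UBE2S, itself included. Among all 14421 tested genes 45 did. UBE2S was chosen for its change in this comparison, so its low rank follows from that choice and nothing is read from it.

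UBD, which encodes FAT10, a ubiquitin-like protein whose enzymes UBA6 and UBE2Z were measured above, was at 4.76, 3.98 and 4.25 TPM in Amuc_0904 libraries, against 3.1, 2.22 and 2.01 TPM in buffer libraries. The UBD groups did not overlap, and it did not pass (log2 fold change 0.64, limma adjusted p = 0.076). ANAPC10, a subunit of the anaphase-promoting complex, was at 18.96, 17.73 and 17.05 TPM after Amuc_0904 and 14.52, 12.14 and 12.84 TPM in buffer (log2 fold change 0.42, limma adjusted p = 0.066). Other list genes near the threshold were lower. RNF31, of the RING-between-RING ligases, had a log2 fold change of -0.64 (limma adjusted p = 0.052). PLK1, of the substrates of the complex, was at -0.37 (0.052), and ANAPC2, of the complex itself, at -0.30 (0.083), each without overlap. All of these genes were chosen after their values were seen.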
